A study of Drosophila melanogaster with 14 samples.

Results

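Glycolysis is the pathway that splits glucose into pyruvate in the cytosol, and the transcripts of 10 of its enzymes were followed across 3 sets of Drosophila melanogaster genotypes. The members are Hex-A, Pgi, Pfk, Ald1, Tpi, Gapdh1, Gapdh2, Pgk, Eno and Pyk, taken as a fixed list by their FlyBase identifiers. No measured value enters that rule, but the list was chosen with earlier results of these data known. They are 10 of the 15490 genes listed in at least one of the 3 deposited expression tables. Each of the 10 was present in every table and passed the filter on low values there.

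In its early steps hexokinase traps glucose as glucose 6-phosphate, phosphofructokinase commits it to breakdown, and aldolase cleaves the sugar into triose phosphates. In the later steps glyceraldehyde 3-phosphate dehydrogenase, phosphoglycerate kinase, enolase and pyruvate kinase carry the trioses to pyruvate with a gain of ATP and NADH. Hexokinase, phosphofructokinase and pyruvate kinase catalyse the steps that are practically irreversible and are the usual points of control. In flies the pathway is very active in flight muscle and in the glia that feed neurons, and insect flight muscle passes its glycolytic NADH to the glycerol phosphate shuttle more than to lactate.

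Poly(A) RNA was sequenced in 14 libraries, each from about 50 adult flies labelled male and aged 5 to 7 days, in a study of pathways downstream of the amyloid precursor protein APP, the Shal495 allele, the TrpA1 channel and hyperexcitability. The first table holds Elav-Gal4;UAS-APP;+ flies (elav-Gal4 UAS-APP), Elav-Gal4;+;+ flies (elav-Gal4 control) and w;UAS-APP;+ flies (UAS-APP control). The second holds w;+;Shal495 flies (Shal495), a line carrying an allele of the Kv4 potassium channel gene Shal, and w1118 flies, and the third holds Elav-Gal4;+;UAS-TrpA1 flies (elav-Gal4 UAS-TrpA1) and w;+;UAS-TrpA1 flies (UAS-TrpA1 control). Each of the 7 groups has 2 libraries (n = 2 throughout). The elav-Gal4 driver acts in all neurons, so a transgene under it is meant for neurons only, while each library holds RNA of all cells of the pooled tissue. The tissue is labelled brain, dissected and fixed with paraformaldehyde, but the series description speaks of heads. Shal495 replicate 2 carries the genotype label Shal496, and that library was kept with Shal495 because its title says so. No elav-Gal4 driver control was part of the TrpA1 table, so the driver and the transgene cannot be told apart in that comparison. In bulk RNA fewer cells of a type and less RNA per cell cannot be told apart either. No source says whether both libraries of a group were taken from different fly cultures, and every p-value below therefore rests on a spread that may be technical.

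Levels are in FPKM, which divides the fragments of a gene by its length and by the library total, and totals ran from 17162942 to 19911318 fragments. Each of the 10 enzymes had between 3305 and 37450 fragments in a library, against a detection floor of 3 fragments. Replicates differed by more than sampling noise in all groups. The excess was smaller in 4 groups (chi-square per gene of 1.86 to 3.52) than in the UAS-APP control, Shal495 and w1118 (23.7 to 28.1). Shal had 18.3 and 20.0 FPKM in Shal495, against 27.7 and 27.1 FPKM in w1118 (log2 difference -0.50 ± 0.093, limma adjusted p = 0.0795), and TrpA1 had 2.76 and 2.62 FPKM in elav-Gal4 UAS-TrpA1, against 1.48 and 1.48 FPKM in the UAS-TrpA1 control (0.58 ± 0.089, adjusted p = 0.0019). Neuron markers were detected in all libraries, with none of the 9 measured ones at 0. The APP transgene was not analysed here. Markers of tissues other than brain were high and differed widely between the groups of the APP table. The 9 gut markers summed to 460 and 451 FPKM in elav-Gal4 UAS-APP, to 32581 and 33123 FPKM in the elav-Gal4 control and to 14018 and 15081 FPKM in the UAS-APP control. The 9 neuron markers summed to 1069 and 1060 FPKM in elav-Gal4 UAS-APP, against 72.0 and 72.8 FPKM in the elav-Gal4 control and 285 and 216 FPKM in the UAS-APP control. The 8 photoreceptor markers summed to 28874 and 28880 FPKM in elav-Gal4 UAS-APP, to 2786 and 2839 FPKM in the elav-Gal4 control and to 24249 and 20103 FPKM in the UAS-APP control. The APP groups thus differed in markers of several cell types, and the part of these in the results was not tested.

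The genes lie on X and on both large autosomes (BDGP6 positions as the tables give them, the same in all 3). Hex-A, the main somatic hexokinase, lies on X from 9585675 to 9589813, and Pgi, which turns glucose 6-phosphate into fructose 6-phosphate, on 2R from 8910900 to 8914069. Pfk, the phosphofructokinase gene, spans 2R from 10109740 to 10117457, and Ald1, the main aldolase, 3R from 26254069 to 26261591. Tpi, which interconverts the triose phosphates, lies on 3R from 30132981 to 30134599. Gapdh1 on 2R from 7791901 to 7793380 and Gapdh2 on X from 15868145 to 15869661 encode the same dehydrogenase. The sequences of these copies were not compared here. Where they are alike, fragments could have been assigned to either one, so their separate values are uncertain. Pgk and Eno, for phosphoglycerate kinase and enolase, lie on 2L from 2746880 to 2753068 and from 1724768 to 1729636. Pyk, the pyruvate kinase gene, lies on 3R from 22367536 to 22372746. The labels name no strand marking, so reads of overlapping antisense genes cannot be told apart from those of the enzymes.

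Together the 10 transcripts took between 0.659% (Shal495 replicate 1) and 1.04% (UAS-TrpA1 control replicate 2) of all fragments of a library. The control enzymes at the top of the pathway were the least abundant transcripts per length, and the dehydrogenase and pyruvate kinase the most. Hex-A and Pfk held the last 2 ranks by mean FPKM in all 7 groups, with group means from 40.6 FPKM (Pfk in elav-Gal4 UAS-TrpA1) to 133 FPKM (Hex-A in w1118). Gapdh1, Gapdh2 and Pyk held the first 3 ranks in every group except the UAS-APP control, where Ald1 at 459 ± 49.2 FPKM (SD) ranked above Pyk at 391 ± 9.24 FPKM. The highest of the 10 exceeded the lowest by 5.31 to 19.3 times within a library. That span was narrow in the Shal495, w1118 and elav-Gal4 UAS-APP libraries, at 5.31 to 6.18, and wide in the other libraries, at 9.59 to 19.3.

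Neighbours in the order of levels were not always apart. In elav-Gal4 UAS-APP the order was Gapdh1, Pyk, Gapdh2, Ald1, Eno, Tpi, Pgk, Pgi, Hex-A and Pfk, and Pgk and Pgi were the one pair of neighbours whose libraries overlapped. In the elav-Gal4 control it was Gapdh1, Gapdh2, Pyk, Eno, Ald1, Tpi, Pgi, Pgk, Hex-A and Pfk, with no overlap between neighbours. The UAS-APP control had Ald1 after Gapdh2 and then Pyk and Eno, and its Gapdh1 and Gapdh2 values overlapped. Shal495 began with Pyk, Gapdh2 and Gapdh1, and all neighbours overlapped there other than Eno with Tpi and Pgk with Hex-A. In w1118 the order began with Gapdh2, Pyk and Gapdh1, and Pyk and Gapdh1 overlapped. In elav-Gal4 UAS-TrpA1 the order was Gapdh1, Gapdh2, Pyk, Tpi, Eno, Ald1, Pgi, Pgk, Hex-A and Pfk, with overlaps between Gapdh2 and Pyk and between Tpi and Eno. In the UAS-TrpA1 control Pgk stood above Pgi, and Pfk at 68.8 ± 1.26 FPKM could not be separated from Hex-A at 66.1 ± 2.75 FPKM.

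**Figure D1:**
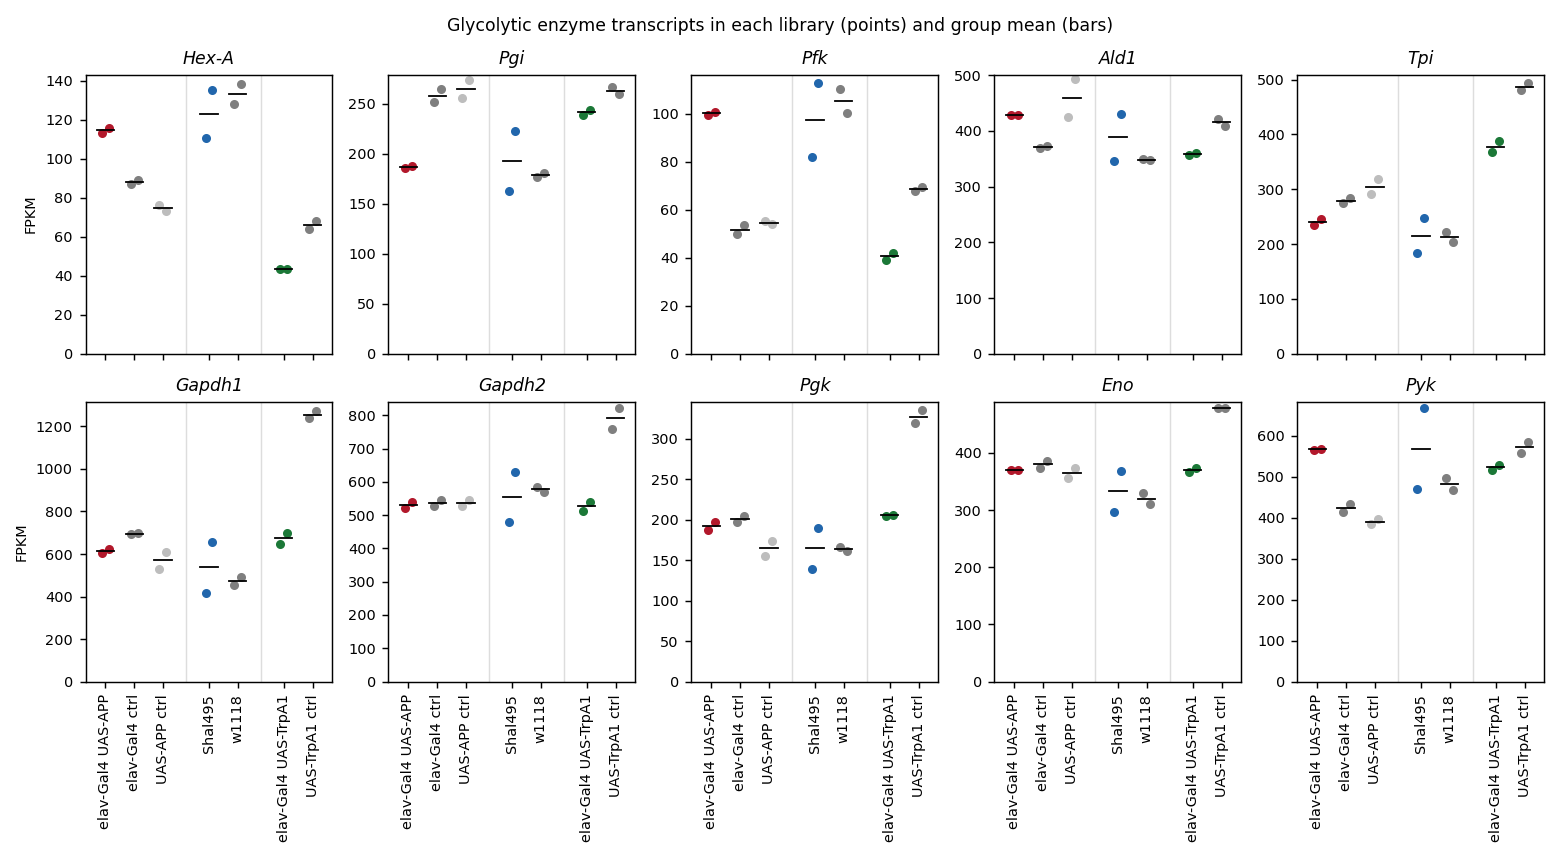
FPKM of each glycolytic enzyme (one panel per gene, axis from 0) in the 14 libraries, with points for libraries and black bars for group means, and grey lines between the 3 separately deposited tables. All 10 panels show elav-Gal4 UAS-TrpA1 below its control, Pfk stands near 100 FPKM in elav-Gal4 UAS-APP against 49.8 to 55.4 FPKM in its controls, and the Shal495 libraries lie apart from each other in every panel.

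The TrpA1 comparison asked what changes when the elav-Gal4 driver is combined with UAS-TrpA1, a transgene for a heat-activated cation channel. All 10 enzymes were called lower in the elav-Gal4 UAS-TrpA1 flies, and in each of them the libraries of the groups did not overlap. Over all 8980 genes tested, 43.9% were called lower and 16.6% higher, and the libraries were lower without overlap in 58.1% and higher without overlap in 22.8%. The median log2 difference was -0.48 over the enzymes and -0.16 over all genes tested, a difference between these medians of -0.32. After median centring of each library the median of all genes was 0.03.

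Among the early steps, Hex-A had 43.4 and 43.5 FPKM in elav-Gal4 UAS-TrpA1, against 64.1 and 68.0 FPKM in the UAS-TrpA1 control. Pfk had 39.3 and 42.0 FPKM in elav-Gal4 UAS-TrpA1, against 67.9 and 69.7 FPKM in the control. The groups did not overlap for either of these control points of the pathway, and the log2 differences were -0.59 ± 0.044 (SE, adjusted p = 7.08e-05, limma with Benjamini-Hochberg adjustment as for all adjusted p below) for Hex-A and -0.75 ± 0.047 (adjusted p = 3.36e-05) for Pfk. Pgi, the enzyme between them, had 239 and 244 FPKM in elav-Gal4 UAS-TrpA1, against 267 and 260 FPKM in the control. That is a small step, -0.12 ± 0.033 (adjusted p = 0.0173), and it turned to 0.06 after median centring, where it did not pass. Ald1 had 357 and 360 FPKM in elav-Gal4 UAS-TrpA1, against 422 and 409 FPKM in the control, a difference of -0.21 ± 0.032 (adjusted p = 0.00158) that shrank to -0.03 after median centring. Tpi had 367 and 388 FPKM in elav-Gal4 UAS-TrpA1, against 481 and 494 FPKM in the control (-0.37 ± 0.038, adjusted p = 0.000315).

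The later steps held Gapdh1, which had the largest difference of the 10. Gapdh1 had 649 and 698 FPKM in elav-Gal4 UAS-TrpA1, against 1240 and 1271 FPKM in the UAS-TrpA1 control, a log2 difference of -0.90 ± 0.042 (adjusted p = 9.45e-06). The control libraries held the highest Gapdh1 values of all 14 libraries. Gapdh2 had 512 and 541 FPKM in elav-Gal4 UAS-TrpA1, against 759 and 822 FPKM in the control (-0.58 ± 0.048, adjusted p = 0.000108). The ratio of Gapdh1 to Gapdh2 was 1.27 and 1.29 in elav-Gal4 UAS-TrpA1, against 1.63 and 1.55 in the control. Pgk, which makes the first ATP of the payoff phase, had 205 and 206 FPKM in elav-Gal4 UAS-TrpA1, against 320 and 336 FPKM in the control (-0.67 ± 0.036, adjusted p = 1.66e-05). Eno had 367 and 373 FPKM in elav-Gal4 UAS-TrpA1, against 479 and 479 FPKM in the control (-0.37 ± 0.030, adjusted p = 9.53e-05). Pyk, the last enzyme, changed little, with 518 and 528 FPKM in elav-Gal4 UAS-TrpA1, against 558 and 586 FPKM in the control (-0.13 ± 0.036, adjusted p = 0.0202), and its direction turned after median centring (0.06, not past the threshold).

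The direction of the other 8 enzymes was the same under median centring and quantile normalization, and 7 and 9 of the 10 were called lower there, beside 2042 and 2169 of all 8980 genes. Without elav-Gal4 UAS-TrpA1 replicate 1 the calls of Pgi (adjusted p = 0.0609) and Pyk (adjusted p = 0.0651) were lost, without UAS-TrpA1 control replicate 1 that of Pgi (0.103) and without UAS-TrpA1 control replicate 2 that of Pyk (0.134). Counts of cell type markers called in this comparison stand beside 43.9% of all genes lower and 16.6% higher. All 16 tested of 17 muscle markers were lower in elav-Gal4 UAS-TrpA1, their sum being 1579 and 1581 FPKM there, against 3435 and 3438 FPKM in the control, with none at 0. Neuron markers were lower for 6 of 9 and summed to 252 and 246 FPKM in elav-Gal4 UAS-TrpA1, against 313 and 317 FPKM in the control, and glia markers were lower for 6 of 7. After median centring 14 muscle markers were lower, 4 neuron markers were lower and 3 higher, and 3 glia markers were lower. Photoreceptor markers were higher for 6 and lower for 2 of 8, and summed to 33528 and 34166 FPKM in elav-Gal4 UAS-TrpA1, against 22285 and 22222 FPKM in the control. Fat body markers were higher for 4 and lower for 4 of 8 tested, with log2 differences from -8.39 to 5.17. They summed to 1457 and 1466 FPKM in elav-Gal4 UAS-TrpA1, against 1440 and 1454 FPKM in the control, so the sums hide these differences. The part of these cell types in the fall of the enzymes was not tested.

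**Figure D2:**
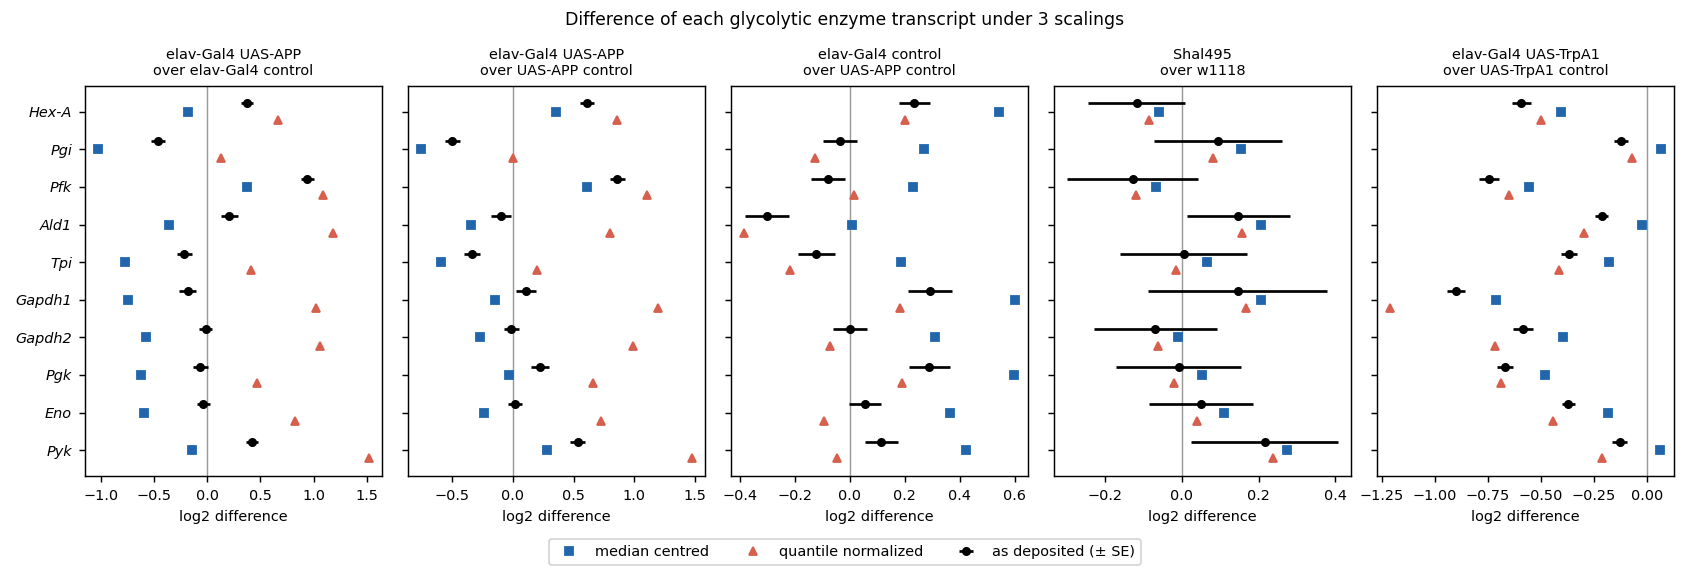
Log2 difference (x axis, log2 of FPKM + 1) of each enzyme in the 5 comparisons, as deposited (black, with SE), after median centring of each library (blue squares) and after quantile normalization (red triangles). For elav-Gal4 UAS-APP against either control most enzymes lie on opposite sides of 0 under different scalings while Pfk stays above 0. Against the UAS-APP control Hex-A and Pyk also stay above 0, and Pgi does not rise above it. For elav-Gal4 UAS-TrpA1 only Pgi and Pyk reach above 0, at 0.06 each after median centring.

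The APP comparisons asked what elav-Gal4 UAS-APP flies express beyond flies with the driver or the transgene alone. Both use the same elav-Gal4 UAS-APP libraries, so they are not independent, and their values are given side by side. Against the elav-Gal4 control 4 enzymes were higher (Hex-A, Pfk, Ald1 and Pyk), 2 lower (Pgi and Tpi) and 4 not past the threshold. Among all 9866 genes tested 56.5% were higher and 27.5% lower. The libraries of the groups did not overlap in 4 enzymes that were higher and 4 that were lower, beside 61.5% and 31.8% of all genes. Against the UAS-APP control 4 were again higher (Hex-A, Pfk, Pgk and Pyk), 2 lower (Pgi and Tpi) and 4 not past it, beside 46.1% and 30.7% of all genes. There 4 were higher and 2 lower without overlap, beside 51.9% and 36.6% of all genes. The median log2 difference of the enzymes was -0.03 against the elav-Gal4 control and 0.06 against the UAS-APP control, where the medians of all genes were 0.43 and 0.17 (-0.13 and -0.08 after median centring). Differences below are as deposited, and values after subtraction of these medians are called relative.

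Pfk had the largest log2 difference of the 10 against both controls as deposited. After median centring the Pgi differences were larger in size (-1.03 and -0.75), and after quantile normalization those of Pyk were (1.52 and 1.47). It had 99.5 and 101 FPKM in elav-Gal4 UAS-APP, against 49.8 and 53.7 FPKM in the elav-Gal4 control and 55.4 and 54.1 FPKM in the UAS-APP control. The groups did not overlap, and the elav-Gal4 UAS-APP mean was 1.93 times that of the elav-Gal4 control and 1.83 times that of the UAS-APP control. The log2 differences were 0.94 ± 0.061 (adjusted p = 4.38e-06) and 0.86 ± 0.061 (adjusted p = 1.3e-05), or 0.51 and 0.69 relative. Pfk was called higher against both controls under median centring (0.38 and 0.61), under quantile normalization (1.09 and 1.10) and with any single library left out.

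Pgi, the step just before, went the other way. It had 186 and 188 FPKM in elav-Gal4 UAS-APP, against 252 and 265 FPKM in the elav-Gal4 control and 256 and 274 FPKM in the UAS-APP control. The log2 differences were -0.46 ± 0.062 (adjusted p = 0.000249) and -0.50 ± 0.062 (adjusted p = 0.000219), or -0.89 and -0.67 relative, but quantile normalization turned the first to 0.13 and took the second to 0.00, where it did not pass. The ratio of Pfk to Pgi within a library does not depend on a scaling factor of the library. It was 0.536 and 0.537 in elav-Gal4 UAS-APP, against 0.198 and 0.203 in the elav-Gal4 control and 0.216 and 0.198 in the UAS-APP control. In the other tables the ratio was 0.504 and 0.505 in Shal495, against 0.625 and 0.556 in w1118, and 0.164 and 0.172 in elav-Gal4 UAS-TrpA1, against 0.255 and 0.269 in the UAS-TrpA1 control. The elav-Gal4 UAS-APP libraries thus had a ratio in the range of the Shal495 table, and their own controls had ratios in the range of the TrpA1 table, though levels across tables rest on separately deposited files.

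**Figure D3:**
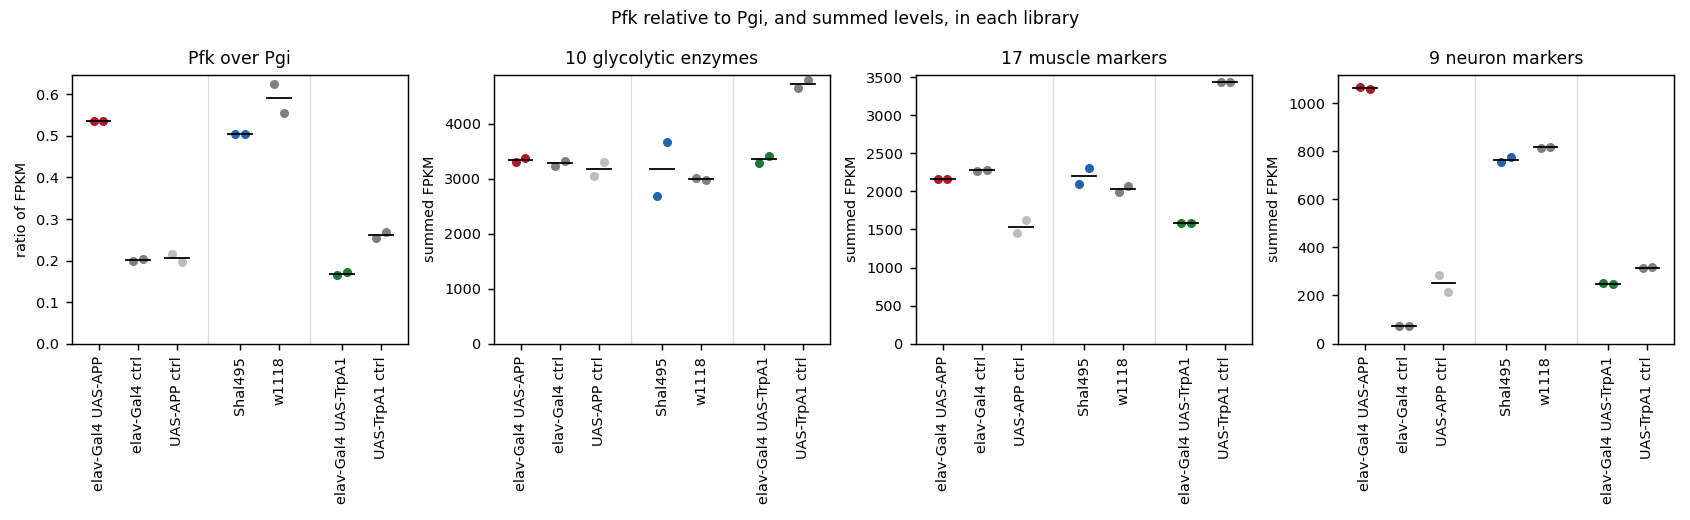
Ratio of Pfk to Pgi (FPKM over FPKM) and summed FPKM of the 10 enzymes, of 17 muscle markers and of 9 neuron markers, with points for libraries and bars for group means, all axes from 0. The ratio is 0.536 and 0.537 in elav-Gal4 UAS-APP and at most 0.216 in its controls, the sums of enzymes and of muscle markers are both lower in elav-Gal4 UAS-TrpA1 than in its control, and neuron markers are at 72.0 and 72.8 FPKM in the elav-Gal4 control.

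Hex-A, the entry enzyme, had 113 and 116 FPKM in elav-Gal4 UAS-APP, against 87.1 and 89.1 FPKM in the elav-Gal4 control and 76.3 and 73.1 FPKM in the UAS-APP control. It was called higher against both (0.38 ± 0.056, adjusted p = 0.000442, and 0.61 ± 0.056, adjusted p = 4.4e-05), but after median centring the first became -0.19 and was called lower (adjusted p = 0.0165). Pyk, the exit enzyme, had 566 and 567 FPKM in elav-Gal4 UAS-APP, against 414 and 433 FPKM in the elav-Gal4 control and 384 and 397 FPKM in the UAS-APP control. Its differences were 0.42 ± 0.061 (adjusted p = 0.000382) and 0.54 ± 0.061 (adjusted p = 0.000136), of which the first turned to -0.14 after median centring and no longer passed. The 3 enzymes of the irreversible steps, Hex-A, Pfk and Pyk, were thus all called higher against both controls as deposited, with relative differences of -0.05, 0.51 and -0.01 against the elav-Gal4 control and of 0.44, 0.69 and 0.37 against the UAS-APP control.

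The other enzymes differed less than these 3 and Pgi as deposited, but not after median centring. Against the elav-Gal4 control Tpi (-0.78), Gapdh1 (-0.74), Pgk (-0.63), Eno (-0.60) and Gapdh2 (-0.58) were then all called lower, beside 0.38 for Pfk. Ald1 had 428 and 428 FPKM in elav-Gal4 UAS-APP, against 370 and 373 FPKM in the elav-Gal4 control (0.21 ± 0.081, adjusted p = 0.0467), a call lost without filtering and when any one library of either group was left out (adjusted p of 0.154 to 0.177), and turned to -0.36 by median centring, where it was called lower (adjusted p = 0.0111). Against the UAS-APP control, with 424 and 494 FPKM, it did not pass (-0.10, adjusted p = 0.313), but it was called lower without UAS-APP control replicate 1 (-0.20, adjusted p = 0.00048). Tpi had 235 and 246 FPKM in elav-Gal4 UAS-APP, against 274 and 284 FPKM in the elav-Gal4 control and 290 and 318 FPKM in the UAS-APP control. It was called lower against both (-0.22 ± 0.067, adjusted p = 0.0189, and -0.34 ± 0.067, adjusted p = 0.00269). The first call was lost when any one library of either group was left out (adjusted p of 0.0652 to 0.145), and quantile normalization turned the differences to 0.42 and 0.20.

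Gapdh1 had 603 and 623 FPKM in elav-Gal4 UAS-APP, against 695 and 697 FPKM in the elav-Gal4 control (-0.18, adjusted p = 0.0655) and 531 and 608 FPKM in the UAS-APP control (0.11, adjusted p = 0.244). Its values in elav-Gal4 UAS-APP lay below the first control without overlap and overlapped the second. Leaving out UAS-APP control replicate 1 or replicate 2, which share the fit, brought the first difference past the threshold (adjusted p = 0.000523 and 0.000513), and without replicate 2 the second passed too (0.21, adjusted p = 0.00104). Gapdh2 had 523 and 540 FPKM in elav-Gal4 UAS-APP, against 527 and 547 FPKM in the elav-Gal4 control and 527 and 546 FPKM in the UAS-APP control. All 3 groups overlapped for Gapdh2. Pgk had 187 and 198 FPKM in elav-Gal4 UAS-APP, against 197 and 205 FPKM in the elav-Gal4 control (-0.06, adjusted p = 0.428) and 155 and 174 FPKM in the UAS-APP control (0.23 ± 0.073, adjusted p = 0.0241). That call was lost when any one library of elav-Gal4 UAS-APP or of the elav-Gal4 control was left out (adjusted p of 0.0557 to 0.166), and median centring turned it to -0.03. Eno had 369 and 370 FPKM in elav-Gal4 UAS-APP, against 374 and 386 FPKM in the elav-Gal4 control (-0.04, adjusted p = 0.566) and 357 and 374 FPKM in the UAS-APP control (0.02, adjusted p = 0.800).

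How many enzymes were called depended on the scaling in these comparisons. Median centring gave 1 higher and 8 lower against the elav-Gal4 control and 3 higher and 5 lower against the UAS-APP control, and quantile normalization gave 10 higher and 0 lower, and 9 higher and 0 lower. Of all 9866 genes median centring called 3555 higher and 4516 lower against the elav-Gal4 control and 3476 higher and 4140 lower against the UAS-APP control. Quantile normalization called 4068 higher and 3953 lower of all genes against the elav-Gal4 control and 3967 higher and 3653 lower against the UAS-APP control. The sum of FPKM over all genes itself differed, at 439816 and 442899 in elav-Gal4 UAS-APP, against 668444 and 666024 in the elav-Gal4 control and 601055 and 626959 in the UAS-APP control. As a share of that sum the 10 enzymes made up 0.753% and 0.763% in elav-Gal4 UAS-APP, against 0.485% and 0.500% in the elav-Gal4 control and 0.509% and 0.528% in the UAS-APP control. As a share of all fragments they made up 0.804% and 0.817% in elav-Gal4 UAS-APP, against 0.756% and 0.778% in the elav-Gal4 control and 0.732% and 0.793% in the UAS-APP control. The counts of cell type markers that follow are as deposited. They stand beside 56.5% of all genes higher and 27.5% lower against the elav-Gal4 control, and 46.1% and 30.7% against the UAS-APP control. All 9 neuron markers were higher in elav-Gal4 UAS-APP against both controls, and photoreceptor markers were higher for 8 of 8 and 7 of 8. Glia markers were higher for 6 of 7 and 7 of 7, and summed to 1403 and 1412 FPKM in elav-Gal4 UAS-APP, against 745 and 737 FPKM in the elav-Gal4 control and 877 and 848 FPKM in the UAS-APP control. Fat body markers were lower for 6 of 8 tested against either control, and summed to 425 and 426 FPKM in elav-Gal4 UAS-APP, against 1548 and 1570 FPKM in the elav-Gal4 control and 1043 and 1366 FPKM in the UAS-APP control. The yolk protein genes among these markers are typical of females, although the flies are labelled male. Yp2 had 0.463 and 0.492 FPKM in elav-Gal4 UAS-APP, against 145 and 150 FPKM in the elav-Gal4 control and 0.316 and 0.281 FPKM in the UAS-APP control. Yp1 and Yp3 were also highest in the elav-Gal4 control. Gut markers were lower for 8 of 8 and 7 of 8 tested. LManVI and Npc2d were at 0 in an elav-Gal4 UAS-APP library. Npc2d, which was not tested, was also at 0 in replicate 1 of the elav-Gal4 control and of the UAS-APP control. Muscle markers were higher for 7 and lower for 5 of 17 against the elav-Gal4 control, and higher for 12 and lower for 3 of 17 against the UAS-APP control. The summed muscle markers were 2169 and 2161 FPKM in elav-Gal4 UAS-APP, against 2269 and 2288 FPKM in the elav-Gal4 control and 1451 and 1625 FPKM in the UAS-APP control. The part of these markers' cells and of sex in the results was not tested.

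The APP controls were also set against each other, with the same libraries once more. Between them 16.2% of all genes were called higher and 50.2% lower in the elav-Gal4 control, with a median of all genes of -0.27. Without overlap 4 enzymes were higher and 3 lower, beside 21.3% and 62.8% of all genes. Of the enzymes 3 were higher in the elav-Gal4 control, namely Hex-A (0.24 ± 0.056, adjusted p = 0.00788), Gapdh1 (0.29 ± 0.080, adjusted p = 0.0146) and Pgk (0.29 ± 0.073, adjusted p = 0.0103). Ald1 was lower (-0.30 ± 0.081, adjusted p = 0.0139), and the other 6 did not pass. The enzyme median was 0.03, and median centring gave 8 higher and 0 lower, beside 2931 and 2370 of all genes. The calls rested on few libraries, since without elav-Gal4 control replicate 2 no enzyme was called, without elav-Gal4 control replicate 1 only Pgk was, and without UAS-APP control replicate 2 the number higher was 5, with Eno (0.09, adjusted p = 0.0369) and Pyk (0.14, adjusted p = 0.0117) added. Without UAS-APP control replicate 1 Tpi was called lower (-0.19, adjusted p = 0.00758). Pfk differed by -0.08 between the controls (adjusted p = 0.280). Of 8 tested fat body markers 4 were called higher and 4 lower in the elav-Gal4 control. The yolk protein genes Yp1, Yp2 and Yp3 were among the higher ones (4.79, 6.84 and 3.05). Lsp1beta, Lsp2, fit and apolpp were lower, from -3.04 (Lsp1beta) to -0.23 (apolpp). Neuron markers were lower for 9 of 9, photoreceptor markers for 8 of 8 and glia markers for 5 of 7, with 1 higher. Gut markers were higher for 8 of 8 tested and muscle markers for 13 of 17, with 0 lower. The part of these markers' cells and of sex in this comparison was not tested.

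The comparison of Shal495 with w1118 set a line with an allele of the potassium channel gene Shal against another line. Other differences between the lines cannot be told apart from that allele. None of the 10 enzymes passed the threshold, with limma adjusted p from 0.594 (Pyk) to 0.993 (Tpi). Over all 9628 genes 1.16% were higher and 1.20% lower, no enzyme was apart between the groups without overlap, beside 18.2% of all genes higher and 34.5% lower, and 0 enzymes passed under any alternative run, voom on recovered fragments included. No enzyme had an unadjusted p under 0.05. The enzyme median was 0.03 and that of all genes -0.07.

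The Shal495 libraries lay apart from each other for each enzyme. Hex-A had 111 and 135 FPKM in Shal495, against 128 and 138 FPKM in w1118. Pgi had 163 and 223 FPKM in Shal495, against 177 and 180 FPKM in w1118. Pfk had 82.1 and 113 FPKM in Shal495, against 110 and 100 FPKM in w1118. In these early enzymes the groups overlapped. Ald1 had 346 and 431 FPKM in Shal495, against 350 and 347 FPKM in w1118, and Tpi had 183 and 248 FPKM in Shal495, against 222 and 204 FPKM in w1118. Here w1118 values lay within the span of Shal495. Gapdh1 had 417 and 656 FPKM in Shal495, against 455 and 491 FPKM in w1118. Gapdh2 had 480 and 630 FPKM in Shal495, against 585 and 569 FPKM in w1118. The dehydrogenase copies overlapped between the groups as well. Pgk had 140 and 190 FPKM in Shal495, against 166 and 161 FPKM in w1118. Eno had 297 and 369 FPKM in Shal495, against 330 and 310 FPKM in w1118. Pyk had 469 and 668 FPKM in Shal495, against 496 and 469 FPKM in w1118, the largest difference of the 10 at 0.22 ± 0.191.

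All 10 enzymes were higher in Shal495 replicate 2 than in replicate 1, by 1.22 to 1.57 times with a median of 1.35. In w1118 3 of 10 were higher in replicate 2 and the ratios ran from 0.910 to 1.08. Replicate 2 of Shal495 is the library whose genotype label reads Shal496. Without it the median log2 difference of the enzymes was -0.20, and without Shal495 replicate 1 it was 0.22. The summed muscle markers were 2103 and 2312 FPKM in Shal495, against 1990 and 2075 FPKM in w1118. The 9 fat body markers summed to 930 and 1181 FPKM in Shal495, against 306 and 334 FPKM in w1118, and 3 of 6 tested were called higher. These 3 were the yolk protein genes Yp1, Yp2 and Yp3, which are typical of females, although the flies are labelled male. Yp2 had 313 and 351 FPKM in Shal495, against 0.955 and 1.05 FPKM in w1118 (7.38 ± 0.101, adjusted p = 0.000147). The part of muscle, fat body and sex in the values of the enzymes was not tested.

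In the authors' deposited table of KEGG pathways for Shal495, the term for glycolysis and gluconeogenesis had the smallest p-value of 54 terms (p = 1.59e-06, FDR 0.000267), with 2 genes counted up and 8 down. In the authors' deposited table of GO terms for Shal495, the term for the glycolytic process had 5 genes, all down (p = 0.00197, FDR 0.115). None of the 10 enzymes is among the genes of either term, and none is listed in any term of the 6 deposited enrichment tables. Of the genes in the KEGG term of the authors' deposited table, Pglym87 had 0.0508 and 0.101 FPKM in Shal495, against 7.91 and 0.201 FPKM in w1118. Hex-t2, a hexokinase gene named for the testis, had 0 and 0.0348 FPKM in Shal495, against 5.51 and 0.209 FPKM in w1118. Ald2, an aldolase gene, had 0.0278 and 0.0276 FPKM in Shal495, against 3.03 and 0.110 FPKM in w1118. CG32445 had 0 and 0 FPKM in Shal495, against 7.45 and 0.525 FPKM in w1118. CG4988 had 0 and 0 FPKM in Shal495, against 2.54 and 0.224 FPKM in w1118. In each of these 5, w1118 replicate 1 was the one library above 1 FPKM. Other genes of the term did not share that pattern. Aldh had 302 and 436 FPKM in Shal495, against 187 and 175 FPKM in w1118 (adjusted p = 0.0820). Adh had 0.611 and 0.703 FPKM in Shal495, against 2.87 and 1.99 FPKM in w1118 (adjusted p = 0.0945). CG9961 had 0.0383 and 0.0759 FPKM in Shal495, against 2.23 and 1.10 FPKM in w1118 (adjusted p = 0.103).

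The w1118 replicate 1 library also carried testis markers, whose 6 measured genes summed to 0.102 and 0.242 FPKM in Shal495, against 115 and 5.18 FPKM in w1118, with Mst84Db, Mst98Ca, Mst98Cb and loopin-1 at 0 in a Shal495 library. The part of testis RNA in the authors' term was not tested. CG7059, another gene of the term, was the only related gene called in this comparison. It had 4.81 and 5.20 FPKM in Shal495, against 12.8 and 10.5 FPKM in w1118 (-1.07 ± 0.141, adjusted p = 0.0399), and leaving out any one of the 4 libraries lost the call (adjusted p of 0.0730 to 0.170). Pepck2, which makes phosphoenolpyruvate, had 6.10 and 17.6 FPKM in Shal495, against 0.798 and 0.932 FPKM in w1118 (2.63, adjusted p = 0.0745). Men, for the cytosolic malic enzyme, had 203 and 220 FPKM in Shal495, against 146 and 150 FPKM in w1118 (0.51, adjusted p = 0.0706).

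**Figure D4:**
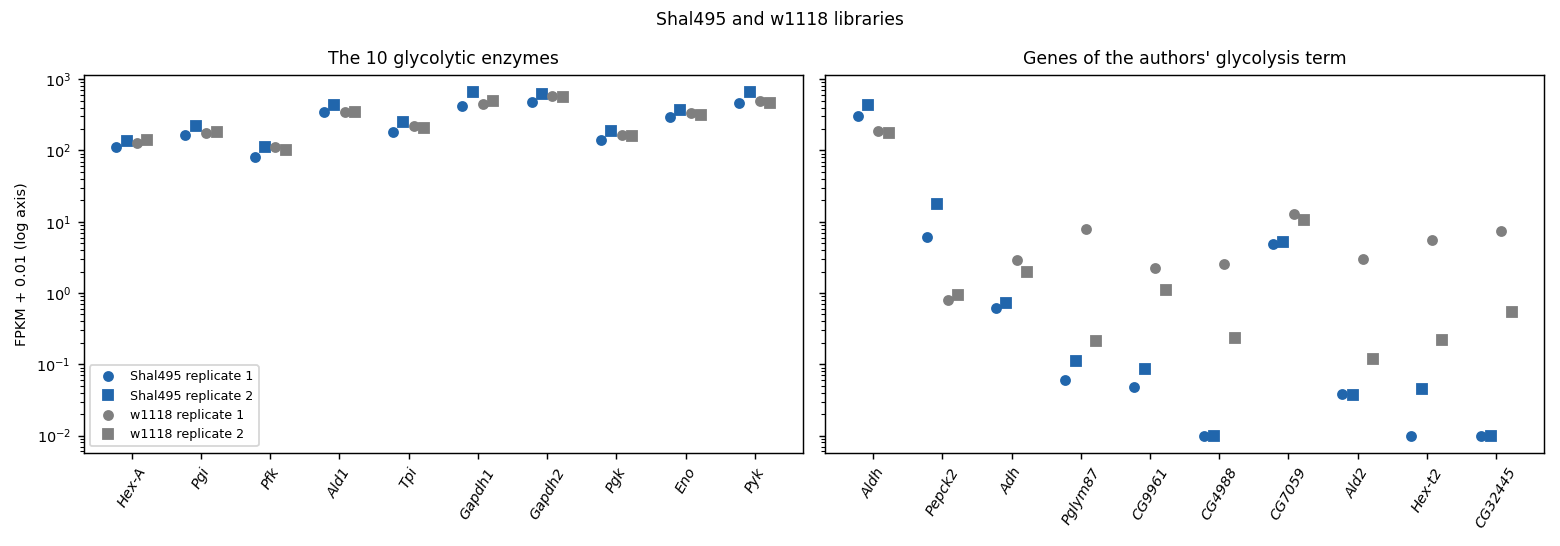
FPKM plus 0.01 on a log axis in the Shal495 (blue) and w1118 (grey) libraries, circles for replicate 1 and squares for replicate 2, for the 10 enzymes (left) and the 10 genes of the authors' KEGG term (right). The enzymes lie between 82.1 and 668 FPKM with the groups mixed, and Pglym87, Hex-t2, Ald2, CG32445 and CG4988 stand above 1 FPKM in w1118 replicate 1 only.

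Genes that feed, drain or border the pathway were counted in fixed lists. Phosphoglycerate mutase, the step between Pgk and Eno that the 10 do not cover, was followed here through the gene Pglym78. Other listed isoenzymes, Pglym87 among them, were not followed for this step. Pglym78 had 322 and 329 FPKM in elav-Gal4 UAS-TrpA1, against 517 and 509 FPKM in the UAS-TrpA1 control (-0.65 ± 0.031, adjusted p = 9.95e-06), beside -0.67 for Pgk. In elav-Gal4 UAS-APP it had 268 and 268 FPKM, against 294 and 308 FPKM in the elav-Gal4 control (-0.17, adjusted p = 0.0418) and 281 and 303 FPKM in the UAS-APP control (-0.12, adjusted p = 0.123), and quantile normalization turned both upward (0.52 and 0.45). It differed by 0.05 between the APP controls and by 0.00 between Shal495 and w1118 (adjusted p = 0.540 and 0.995). Of the tested isoenzymes and extra steps, 3 were lower and 1 higher of 4 in elav-Gal4 UAS-TrpA1, beside 43.9% and 16.6% of all genes. In elav-Gal4 UAS-APP 2 were lower and 3 higher of 5 against the elav-Gal4 control, beside 27.5% and 56.5% of all genes, and 1 lower and 2 higher of 5 against the UAS-APP control, beside 30.7% and 46.1%. After median centring the APP counts were 2 lower and 1 higher, and 3 lower and 1 higher.

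Among the sugar supply genes, 3 glycogen enzymes had the smallest adjusted p of the related genes in elav-Gal4 UAS-TrpA1. GlyP, glycogen phosphorylase, had 156 and 155 FPKM in elav-Gal4 UAS-TrpA1, against 332 and 331 FPKM in the UAS-TrpA1 control (-1.09 ± 0.030, adjusted p = 1.35e-06). GlyS, glycogen synthase, had 33.7 and 33.2 FPKM in elav-Gal4 UAS-TrpA1, against 83.6 and 87.1 FPKM in the control (-1.33 ± 0.041, adjusted p = 2.03e-06). AGBE, the branching enzyme, had 58.8 and 61.1 FPKM in elav-Gal4 UAS-TrpA1, against 152 and 152 FPKM in the control (-1.33 ± 0.037, adjusted p = 1.35e-06). These 3 are named because their adjusted p was the smallest of the related genes, and glycogen genes were not counted as a list of their own. Of 12 tested sugar supply genes 8 were lower and 3 higher there, beside 43.9% and 16.6% of all genes, and 6 were lower and 4 higher after median centring. All 4 tested gluconeogenesis genes were lower, as were 13 of 18 genes of the tricarboxylic acid cycle, with 3 higher, and 9 of 11 of the pyruvate, lactate and glycerol phosphate branches, with 1 higher. After median centring 2 of the 4 gluconeogenesis genes were lower, 8 genes of the tricarboxylic acid cycle were lower and 4 higher, and 7 of the pyruvate, lactate and glycerol phosphate branches were lower and 1 higher. Of all 8980 genes median centring called 2042 lower and 2586 higher. The gene of these branches that was higher was Pdk, the kinase that switches off pyruvate dehydrogenase, with 112 and 112 FPKM in elav-Gal4 UAS-TrpA1, against 66.3 and 64.1 FPKM in the control (0.77 ± 0.037, adjusted p = 1.04e-05). Pdk was singled out after its values were seen.

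The pentose phosphate pathway, which branches off at glucose 6-phosphate, was counted in elav-Gal4 UAS-APP as well. All 6 tested genes were lower against both controls, beside 27.5% and 30.7% of all genes. Their medians were -1.32 and -1.38, beside 0.43 and 0.17 over all genes, and all 6 were also called lower under median centring and under quantile normalization. Taldo, transaldolase, had 147 and 158 FPKM in elav-Gal4 UAS-APP, against 571 and 586 FPKM in the elav-Gal4 control and 519 and 650 FPKM in the UAS-APP control. Its log2 differences were -1.92 ± 0.107 (adjusted p = 2.1e-06) and -1.92 ± 0.107 (adjusted p = 4.76e-06). CG8036, listed in the reference with the synonym Transk, had 137 and 136 FPKM in elav-Gal4 UAS-APP, against 393 and 401 FPKM in the elav-Gal4 control and 326 and 375 FPKM in the UAS-APP control (-1.53 and -1.35, adjusted p = 1.19e-06 and 5.01e-06). In elav-Gal4 UAS-TrpA1 1 of the 6 was lower and 5 did not pass, beside 43.9% of all genes lower and 16.6% higher. The median of the 6 was -0.07 there, beside -0.16 over all genes. After median centring 4 of the 6 were higher and 1 lower, beside 2586 higher and 2042 lower of all 8980 genes.

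Other related genes with the smallest adjusted p in the APP comparisons were Glut1 and Men-b. Glut1, a glucose transporter, had 37.7 and 37.0 FPKM in elav-Gal4 UAS-APP, against 5.07 and 5.22 FPKM in the elav-Gal4 control and 9.94 and 8.60 FPKM in the UAS-APP control (2.64 ± 0.085, adjusted p = 1.93e-07, and 1.90 ± 0.085, adjusted p = 2.09e-06). Men-b, a mitochondrial malic enzyme, had 91.5 and 89.2 FPKM in elav-Gal4 UAS-APP, against 245 and 248 FPKM in the elav-Gal4 control and 207 and 220 FPKM in the UAS-APP control (-1.44 ± 0.058 and -1.23 ± 0.058, adjusted p = 4.73e-07 and 2.64e-06). Of 18 tested genes of the tricarboxylic acid cycle and malic enzymes, 6 were higher and 9 lower against the elav-Gal4 control, beside 56.5% and 27.5% of all genes, and 7 higher and 8 lower against the UAS-APP control, beside 46.1% and 30.7%. These counts turned with the scaling. Against the elav-Gal4 control they were 2 higher and 12 lower after median centring and 11 higher and 5 lower after quantile normalization, and against the UAS-APP control 2 higher and 10 lower, and 12 higher and 4 lower. Between the APP controls the smallest adjusted p belonged to sug, a sugar-responsive transcription factor (2.27 ± 0.122, adjusted p = 1.47e-05), Hex-C, another hexokinase (1.07 ± 0.102, adjusted p = 0.000137), and G6P, glucose 6-phosphatase (-1.29 ± 0.124, adjusted p = 0.000143).

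Ldh, which turns pyruvate into lactate, had 6.91 and 8.48 FPKM in elav-Gal4 UAS-APP, against 72.8 and 73.6 FPKM in the elav-Gal4 control and 32.3 and 46.3 FPKM in the UAS-APP control (-3.10 ± 0.162 and -2.20 ± 0.162, adjusted p = 1.49e-06 and 1.59e-05). It had 14.3 and 13.4 FPKM in elav-Gal4 UAS-TrpA1, against 27.4 and 28.6 FPKM in the UAS-TrpA1 control (-0.97 ± 0.056, adjusted p = 2.36e-05). In Shal495 it did not pass (0.11, adjusted p = 0.687), and between the APP controls it was higher in the elav-Gal4 control (0.90, adjusted p = 0.00231). Gpdh1, which drains triose phosphate into glycerol phosphate, differed by -0.41 against the elav-Gal4 control (adjusted p = 0.00963), with 0.29 after quantile normalization, and by -0.02 against the UAS-APP control (adjusted p = 0.900). Its difference was -0.14 in elav-Gal4 UAS-TrpA1 (adjusted p = 0.00733), with 0.05 after median centring, 0.39 between the APP controls (adjusted p = 0.0160) and 0.16 in Shal495 (adjusted p = 0.660). ERR, the nuclear receptor that switches on glycolytic genes in embryos and larvae, was low at 1.08 to 2.32 FPKM in all libraries and passed in no comparison (adjusted p of 0.130 to 0.707).

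**Figure D5:**
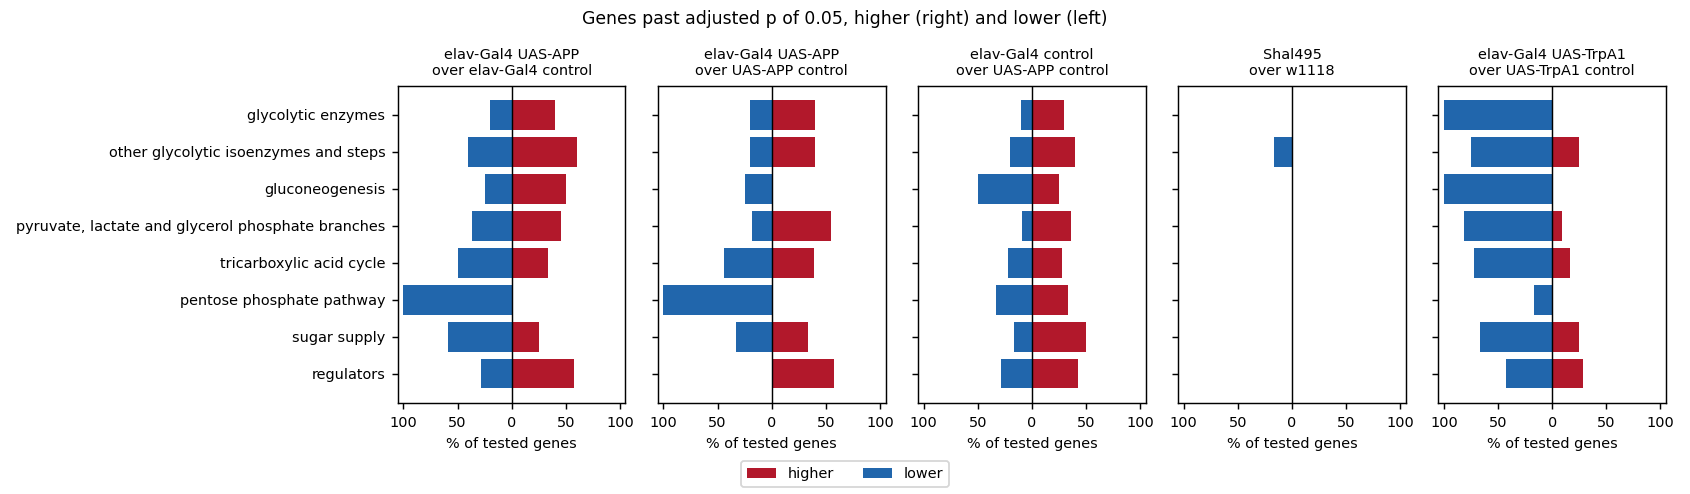
Percent of tested genes called higher (red, right of 0) and lower (blue, left of 0) at an adjusted p of 0.05 in the 10 enzymes and 7 related lists, one panel per comparison. The enzymes reach 100% lower in elav-Gal4 UAS-TrpA1, the pentose phosphate pathway reaches 100% lower in both elav-Gal4 UAS-APP panels, and in Shal495 a bar appears for 1 list, from CG7059.

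How alike the 10 enzymes were across the study was described by the root mean square difference, over the 14 libraries, between a gene's log2 value centred within its table and the mean profile of the 10. Eno (0.055), Gapdh2 (0.062) and Pgk (0.088) followed the mean profile most closely, and Pfk (0.260) and Pgi (0.210) least. Over 4009 genes with a mean of at least 10 FPKM in every table the median of this distance was 0.313. Each of the 10 is part of the mean profile, which shortens its own distance, so that median is not a like measure. A gene that did not vary within any table would lie at 0.156. That is nearer than Pfk and Pgi, and about as far as Gapdh1 (0.155) and Pyk (0.154). The genes nearest to the mean profile that are not enzymes of the list were SCaMC (0.053), CG40191 (0.067), Atg13 (0.080), ATPsynC (0.083) and CG13907 (0.086). SCaMC encodes a mitochondrial carrier, Atg13 an autophagy protein and ATPsynC a subunit of the mitochondrial ATP synthase. In elav-Gal4 UAS-TrpA1 these 5 differed by -0.57, -0.55, -0.38, -0.71 and -0.54 in that order, and in Shal495 by 0.07, 0.11, -0.02, 0.08 and -0.01. Such a likeness over libraries that differ in cell makeup is a description of levels only.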

How the data were processed

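RNA of 14 libraries in 7 groups was analysed from 3 tables in which the authors deposited FPKM per gene and library, and from 6 enrichment tables in which the authors deposited p-values and numbers of genes (counts up and down) per term. The submitters' processing notes name BDGP6, Bowtie2 2.2.3, HISAT2 2.1.0 and TopHat2 with no roles, with the FPKM program not given in the sources used here. Multiplying FPKM by gene length and by a total fitted to each library gave whole fragments (within 0.02) for 97.8% to 98.0% of genes per library. Symbols were matched for 99.1% of identifiers.

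limma 3.58.1 (R 4.3.3, empirical Bayes with trend, two-sided) was run on log2(FPKM + 1) over genes that reached 1 FPKM in 2 or more libraries of the table, with Benjamini-Hochberg adjustment over all genes tested and a threshold of 0.05. The pseudocount of 1 understates changes of low genes. The 3 APP groups shared 1 fit. SE is that of the log2 difference, and SD is over the 2 libraries. The members and all lists were chosen with earlier results of these data known, so no list was tested as a set. Named genes were all 10 members, the 3 related genes with the smallest adjusted p per comparison, Pglym78, Ldh, Gpdh1, ERR and the 5 nearest profiles. The genes of the authors' glycolysis term were added after the values were seen. Replicate numbers did not pair the samples (correlation of replicate differences from -0.033 to 0.018). Other settings were a smaller pseudocount (0.1), a stricter filter (5 FPKM) or none, centring on library medians, quantile normalization, voom on the recovered fragments (at least 10 in 2 libraries), a replicate block, separate fits of the groups compared, and omission of each library. Calculations used Python 3.11.15 with numpy 2.4.6 and pandas 2.3.3, and plots matplotlib 3.10.9.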

Additional observations from a re-analysis of the deposited data

How the results depend on the processing

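Each group has 2 libraries, and many directions in the APP comparisons changed with the scaling of the table. The cause of each change below was not tested. A smaller pseudocount, the filters, voom and fits of the groups compared changed the count of called enzymes by no more than 1 in any comparison.

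Median centring gave 1 higher and 8 lower against the elav-Gal4 control (median log2 difference -0.59), 3 higher and 5 lower against the UAS-APP control (median -0.19), and 8 higher and 0 lower in the elav-Gal4 control against the UAS-APP control (median 0.34). It took the median in elav-Gal4 UAS-TrpA1 to -0.29. It turned Ald1 (-0.36), Hex-A (-0.19) and Pyk (-0.14) against the elav-Gal4 control, and Eno (-0.24), Gapdh1 (-0.14) and Pgk (-0.028) against the UAS-APP control. Between the APP controls it turned Ald1 (0.0079), Pfk (0.23), Pgi (0.27) and Tpi (0.19), in elav-Gal4 UAS-TrpA1 Pgi (0.065) and Pyk (0.059), and in Shal495 Pgk (0.051).

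Quantile normalization gave 10 higher and 0 lower against the elav-Gal4 control (median 0.92), 9 higher and 0 lower against the UAS-APP control (median 0.83), and 3 higher and 3 lower between the APP controls (median -0.058). It turned Eno (0.82), Gapdh1 (1.02), Gapdh2 (1.06), Pgi (0.13), Pgk (0.47) and Tpi (0.42) against the elav-Gal4 control, and Ald1 (0.80), Gapdh2 (0.99) and Tpi (0.20) against the UAS-APP control. Between the APP controls it turned Eno (-0.093), Gapdh2 (-0.071), Pfk (0.014) and Pyk (-0.045), and in Shal495 Tpi (-0.016). Over all genes the calls in elav-Gal4 UAS-TrpA1 were 1495 higher and 3944 lower as deposited, 2586 and 2042 after centring and 2325 and 2169 after quantile normalization.

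Leaving out 1 library at a time gave 3 to 4 higher and 1 to 3 lower against the elav-Gal4 control, 3 to 5 higher and 2 to 3 lower against the UAS-APP control, 0 to 5 higher and 0 to 2 lower between the APP controls, and 8 to 10 lower in elav-Gal4 UAS-TrpA1. In Shal495 no enzyme was called and the median ran from -0.20 to 0.22. All 10 enzymes changed direction there: Ald1 ran from -0.011 to 0.30, Eno from -0.11 to 0.20, Gapdh1 from -0.18 to 0.47, Gapdh2 from -0.26 to 0.13, Hex-A from -0.26 to 0.024, Pfk from -0.36 to 0.10, Pgi from -0.13 to 0.32, Pgk from -0.23 to 0.21, Pyk from -0.039 to 0.47 and Tpi from -0.21 to 0.22. Against the UAS-APP control Ald1 ran from -0.20 to 0.014, Eno from -0.017 to 0.052 and Gapdh2 from -0.040 to 0.012. Against the elav-Gal4 control Gapdh2 ran from -0.041 to 0.010, and between the APP controls Gapdh2 ran from -0.024 to 0.028 and Pgi from -0.084 to 0.011.

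The replicate block left the counts of called enzymes as they were, at 4 higher and 2 lower against either control, 3 higher and 1 lower between the APP controls, 0 and 0 in Shal495 and 0 higher and 10 lower in elav-Gal4 UAS-TrpA1. Over all genes of Shal495 it gave 50 higher and 46 lower, against 112 and 116 without it. The libraries share only a number, and nothing in the labels or the values pairs them.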
